A study of Homo sapiens with 4 samples.

Results

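The genes that license replication origins and build the DNA replication fork were examined in RPE1 cells after knockdown of SAF-A. RPE1 is a line of human retinal pigment epithelium made immortal by telomerase. The SAF-A protein, encoded by HNRNPU, binds RNA and chromatin and is plentiful in the nucleus. The set held 51 genes, listed by symbol from the known composition of the replication machinery, out of 25027 symbols or unmatched identifiers in the tables. All 51 were found, and all 51 were among the 11631 genes tested, which are those whose mean over the 4 libraries reached 1 FPKM. FPKM is a level scaled to the length of the transcript and to the mapped reads of the library, so that levels of different genes can be set side by side.

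Cells were transfected at low confluency with 10 nM of a single Stealth siRNA duplex against SAF-A or with 10 nM of a negative control siRNA, and total RNA was taken 24 h or 48 h later. The groups were therefore control siRNA at 24 h, SAF-A siRNA at 24 h, control siRNA at 48 h and SAF-A siRNA at 48 h, each with 1 library of ribosomal-RNA-depleted RNA. The transfection reagent and the line were common to all groups. With 1 library a group no test is possible, no p-value is given, and every difference below describes these libraries without a replicate check. One siRNA sequence was used, and the phase of the cell cycle was not recorded in the labels.

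DNA is copied once per cell cycle. In G1 the origin recognition complex, CDC6 and CDT1 load the ring-shaped MCM2-7 helicase on DNA, a step called licensing. At the start of S phase the kinases CDC7-DBF4 and CDK turn the loaded rings into active helicases by adding CDC45 and GINS, and polymerases, the PCNA clamp and its loader, ligase and nuclease then follow the fork. Many of these genes are transcribed at the G1 to S boundary under E2F transcription factors, which the RB protein family restrains, and in non-dividing cells most are low. RNA of a population of cells cannot tell fewer cells in S phase from less RNA in each cell, and those were not separated in these data.

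The labels were first checked on HNRNPU, which was at 11.4% of control FPKM at 24 h and at 10.9% at 48 h. The mapped reads implied by the deposited values were 28083822 for control and 30701282 for SAF-A siRNA at 24 h, and 28586051 and 1216740 at 48 h. Each member of the set had between 272 and 9297 estimated reads in the 3 deep libraries. In the SAF-A 48 h library the members had 3 to 218 reads, and 6 members had fewer than 10, so its values are less precise. RNAs shorter than 300 nt held between 50.6% and 63.5% of all FPKM in the 4 libraries. Of 9 retinal pigment epithelium markers, MITF (4.23 to 9.01 FPKM) and OTX2 (2.16 to 3.77 FPKM) reached a mean of 1 FPKM, while the differentiation markers RPE65 and TTR were listed at 0 in all 4 libraries. Of the markers of cultured RPE1 cells, VIM was at 2145, 1845, 1586 and 3312 FPKM and CDKN2A at 42.0, 45.7, 56.5 and 115 FPKM in the order of the mapped reads above. TERT, on the same list, was at 0.404, 0.243, 0.680 and 0.908 FPKM in that order, short of a mean of 1 FPKM. At 48 h KRT8 was at 63.9 and 15.4 FPKM and KRT18 at 229 and 23.3 FPKM, with their estimates marked as failed in the control. VIM and CDKN2A were thus higher and both keratins lower beside SAF-A siRNA at 48 h, and their part in the results was not tested. Blood, endothelial and hepatocyte markers were at most 0.347 FPKM in any library.

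At 24 h most replication genes were slightly lower with SAF-A siRNA. The summed level of the 51 genes was 1743 FPKM (control) and 1463 FPKM (SAF-A), and the median gene was at 21.8 and 18.9 FPKM. The difference in log2(FPKM + 1), a scale that understates differences of low genes, was below 0 for 49 of 51 members against 62.9% of all tested genes. The exceptions were RFC5 and ORC4. The median difference was -0.25, against -0.06 over all tested genes, and the values ran from -0.64 for CDT1 to 0.54 for RFC5. No member was 2-fold higher or 2-fold lower, which 1.83% and 1.25% of tested genes were. The deposited 95% intervals of the 2 libraries did not overlap for 31 members that were lower, against 17.5% of all tested genes called lower by that rule, and for 1 member that was higher, against 8.93%. These intervals cover the estimation within a library only. Among 7721 genes that were 300 nt or longer and reached a mean of 5 FPKM, whose counting error is closer to that of the members, 64.7% were below 0. Rescaled to TPM over all genes, which shifts the median of all tested genes to -0.22, 50 of 51 members and 83.3% of tested genes were below 0, ORC4 among them at -0.10.

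At 48 h the differences were larger and uneven. The sum was 1598 FPKM (control) and 1053 FPKM (SAF-A), and the median gene was at 18.1 and 12.7 FPKM. Of the 51 members, 17 were at least 2-fold lower, against 20.1% of all tested genes, and none was 2-fold higher, against 14.2%. The deposited intervals were apart for all 17. The share of all 2-fold lower genes with intervals apart was not calculated, so this count has no background. The added 1 FPKM shrinks the differences of low genes. With 0.1 FPKM added instead, 19 members were 2-fold lower, MCM6 and POLE among them, against 25.2% of tested genes, and 1 was 2-fold higher, ORC4, against 16.2%. The median difference was -0.75, against -0.12 over all tested genes and 0.04 over the 7721 longer and better expressed ones. A difference below 0 was seen in 42 members, against 54.1% of all tested genes and 48.3% of the 7721. With TPM over genes of 300 nt or longer these became 44 members and 63.6% of tested genes, around a median of -0.38. Intervals were apart for 31 members that were lower, against 25.6% of tested genes, and for 1 that was higher, ORC4, against 21.9%. The share of members called 2-fold lower, 17 of 51, thus stands in a comparison in which about 1 in 5 tested genes was called the same way, and the shallow SAF-A 48 h library makes all of its values wide. What part its depth has in the 48 h counts was not tested.

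The 24 h and 48 h comparisons share no library. Of the 51 members, 42 were below 0 at both times, against 38.8% of all tested genes, and 2 (ORC4 and RFC5) were above 0 at both. The remaining 7 were below 0 at 24 h and above 0 at 48 h. For 25 of 51 members the level was lower with intervals apart at both times, against 9.61% of all tested genes. Across the 51 members the differences at the 2 times had a Spearman correlation of 0.43 and a Pearson correlation of 0.45, against a Spearman correlation of 0.31 across all 11631 tested genes. These are correlations across genes of the same 4 libraries, and genes are not independent replicates.

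**Figure D1:**
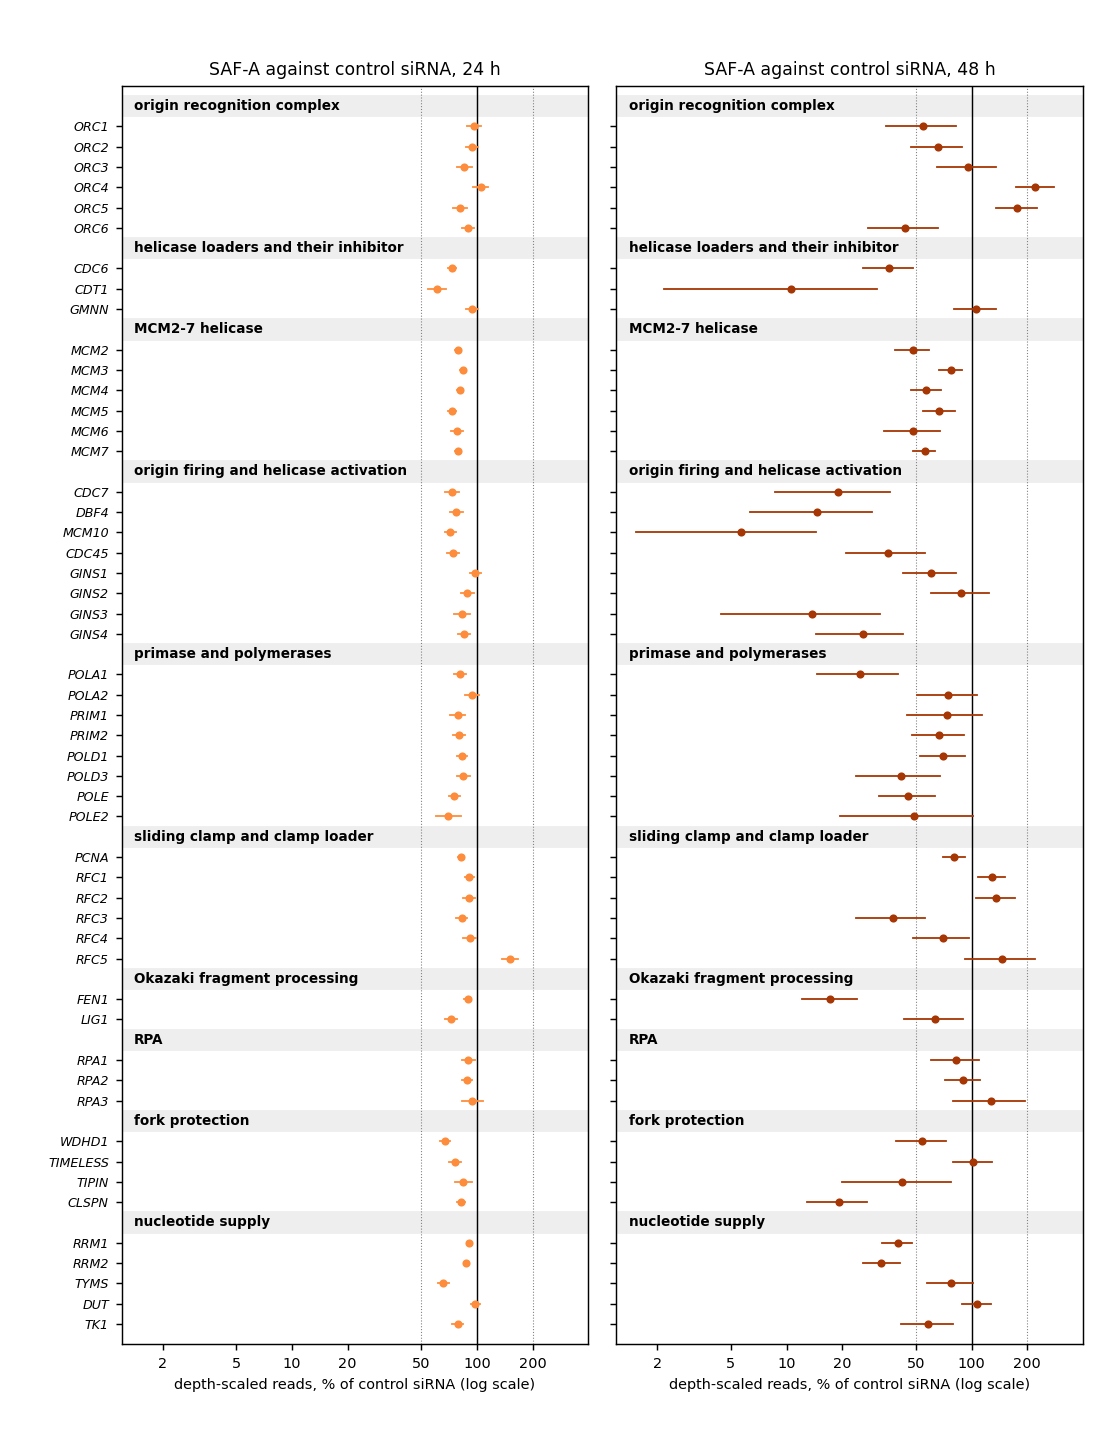
Depth-scaled reads (estimated reads divided by the mapped reads of the library) in the SAF-A siRNA library as a percentage of the control siRNA library at 24 h (left) and 48 h (right), log scale. Each point is 1 of the 51 genes, grouped by role. Lines are exact 95% intervals for counting error, the solid line marks 100% and the dotted lines mark 50% and 200%. At 24 h 49 of the 51 points lie between 61.0% and 98.2%. At 48 h they spread from 5.64% for MCM10 to above 200% for ORC4.

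In time, with control siRNA alone, 43 of 51 members were lower at 48 h than at 24 h, against 43.6% of tested genes, by a median of -0.12 against 0.03 over all tested genes. Rescaled to TPM over all genes, 36 members and 32.7% of tested genes were lower, around a median of 0.10. None was 2-fold higher or lower, which 1.79% and 1.36% of tested genes were. RFC5 had the lowest difference, -0.69, and FEN1 the highest, 0.15. With SAF-A siRNA, 40 of 51 members were lower at 48 h than at 24 h, against 51% of tested genes, 16 were at least 2-fold lower, against 17.8%, and none was 2-fold higher, against 15.1%. The median there was -0.54, against -0.02 over all tested genes. This comparison uses the same SAF-A 48 h library as the 48 h siRNA comparison, so the 2 sets of counts are not independent. The 16 genes exclude MCM2, the one gene among the 17 above that was less than 2-fold lower in time.

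**Figure D2:**
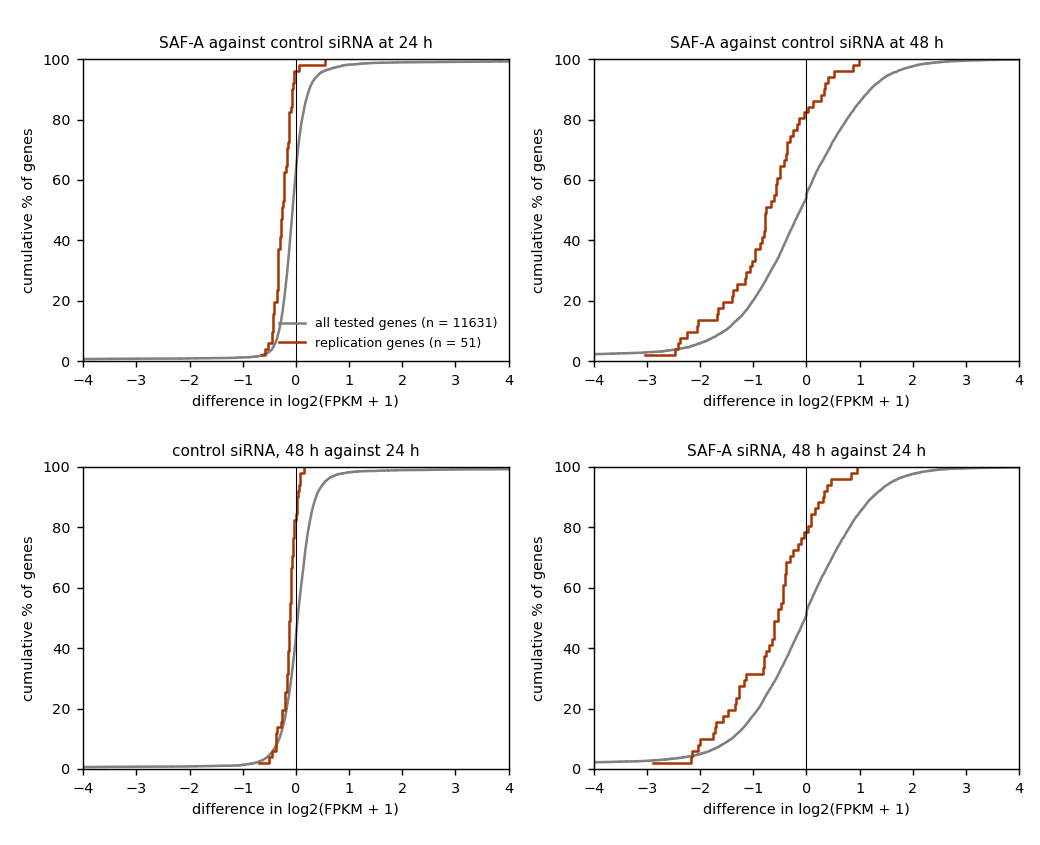
Cumulative percentage of genes (y axis) by difference in log2(FPKM + 1) (x axis, drawn from -4 to 4) for the 51 replication genes and for all 11631 tested genes, in 4 comparisons. In the 2 panels without the SAF-A 48 h library the curves are steep, and the replication genes lie to the left of all genes with a median of -0.25 (24 h siRNA) and -0.12 (control, in time). In the 2 panels with that library both curves are wide, and the replication genes lie to the left with medians of -0.75 and -0.54.

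Promoters of the members were searched for the letters of E2F sites, since E2F factors are the textbook regulators of this set. Windows of 300 bases, 250 before and 50 after the first listed start of each gene, came from RefSeq (GRCh38.p14) and were available for 45 of 51 members. The same letters were found once in GRCh37, the build of the files, for each of the 45, and 35 of those starts lay within 100 bases and 44 within 600 bases of the outermost start in the deposited annotation. The exception was TIPIN. The words searched were TTTCCCGC, TTTCGCGC, TTTGCCGC and TTTGGCGC on both strands, and they can overlap one another. At least 1 word was in 19 of the 45 windows (42.2%), against 6.0% of the 8833 windows of tested genes and 3.33% of all 27303 windows. The word CCAAT, the core of NF-Y sites, was in 53.3% of member windows, 38.2% of those of tested genes and 35.7% of all. The word TTTGAA, the core of the CHR element of later cell cycle genes, was in 4.44%, 9.82% and 15.4%.

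Stretches of 120 bases are shown for 4 of the 19 members with a word, taken as examples from different roles, and for MCM10 and RFC5, which have none in the window and which had the lowest 48 h and the highest 24 h difference in the set. Letters in capitals are the E2F words on either strand, and all sequences run 5′ to 3′ in the direction of the gene (RefSeq, GRCh38.p14). The MCM6 stretch lies further from the start than the others, and shows a run of capitals that occurs in it 2 times, each made of a word and an overlapping word on the other strand. The other stretches end directly before the listed start.
MCM6 (chr2:135876484-135876603, minus strand): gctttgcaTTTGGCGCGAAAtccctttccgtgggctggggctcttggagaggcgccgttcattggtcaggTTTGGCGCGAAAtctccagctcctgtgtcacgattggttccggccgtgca
CDT1 (chr16:88803669-88803788, plus strand): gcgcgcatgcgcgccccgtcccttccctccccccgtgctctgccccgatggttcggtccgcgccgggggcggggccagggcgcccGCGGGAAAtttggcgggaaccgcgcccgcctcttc
LIG1 (chr19:48170345-48170464, minus strand): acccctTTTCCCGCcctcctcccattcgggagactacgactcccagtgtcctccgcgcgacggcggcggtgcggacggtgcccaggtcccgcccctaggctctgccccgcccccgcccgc
POLA2 (chr11:65261842-65261961, plus strand): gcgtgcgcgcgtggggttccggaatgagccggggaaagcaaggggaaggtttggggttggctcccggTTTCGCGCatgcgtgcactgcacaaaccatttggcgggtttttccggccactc
MCM10 (chr10:13161438-13161557, plus strand): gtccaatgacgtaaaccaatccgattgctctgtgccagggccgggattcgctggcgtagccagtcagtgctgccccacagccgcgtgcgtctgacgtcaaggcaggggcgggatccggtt
RFC5 (chr12:118016583-118016702, plus strand): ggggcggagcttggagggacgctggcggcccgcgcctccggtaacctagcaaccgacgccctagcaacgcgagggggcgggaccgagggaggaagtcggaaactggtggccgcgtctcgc

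Members with and without a word overlapped in their differences. The 19 with a word had a median of -0.29 at 24 h (from -0.64 to -0.03) and of -0.83 at 48 h (from -2.41 to -0.06), and 6 of the 19 were 2-fold lower at 48 h. The 26 without one had medians of -0.17 at 24 h (from -0.52 to 0.54) and -0.56 at 48 h (from -3.04 to 0.98), with 9 of 26 2-fold lower. Among all tested genes with a window, the 530 with a word had a 48 h median of -0.25 and 20.0% were 2-fold lower, and the 8303 without one had a median of -0.07 and 17.4% were. A match is a description of letters, and the absence of these letters from a window says nothing of the factor.

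**Figure D3:**
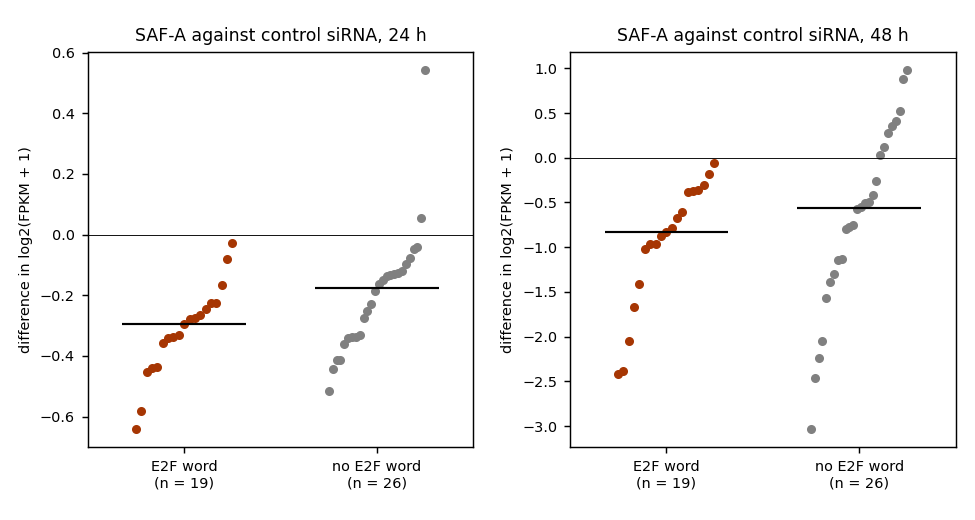
Difference in log2(FPKM + 1) between SAF-A and control siRNA at 24 h (left) and 48 h (right) for the 19 members with an E2F word in the promoter window and the 26 without. Each point is 1 gene, ordered by value, and the horizontal bar is the median. The groups overlap at both times, with medians of -0.29 and -0.17 at 24 h and of -0.83 and -0.56 at 48 h. The points above 0 belong to genes without a word.

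The origin recognition complex, which marks origins and recruits the loaders, had the smallest median difference among the licensing roles, and its 6 subunits went different ways at 48 h. The median difference was -0.11 at 24 h and -0.30 at 48 h. At 24 h 1 of 6 was lower with intervals apart, against 17.5% of tested genes, and at 48 h 3 of 6, against 25.6%. ORC6, the smallest subunit and the most abundant RNA of the complex in the 3 deep libraries, was at 33.6 FPKM (control) and 30.2 FPKM (SAF-A) at 24 h, then 30.4 and 13.3 FPKM at 48 h. The SAF-A 48 h library was the low one, at 43.7% of control (95% counting interval 27.5 to 65.6%). ORC4 (chr2:148687966-148779173, minus strand, hg19), an ATP-binding subunit, was at 5.0, 5.24, 4.62 and 10.1 FPKM in the order of control then SAF-A siRNA at 24 h and the same pair at 48 h. The last was 221% of control in depth-scaled reads (174 to 278%, on 80 reads), while the other 3 libraries lay close together. ORC5, another ATP-binding subunit, was at 21.8, 17.9, 18.8 and 35.5 FPKM, again highest in the SAF-A 48 h library. ORC1, the cell-cycle-regulated large subunit, was at 12.4 and 12 FPKM at 24 h, then 11.6 and 6.38 FPKM at 48 h. ORC2 was at 66.4% of control FPKM at 48 h and ORC3 at 95.9%.

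CDC6 and CDT1, which bring the helicase to the origin complex, were below control at both times, and the gene of their inhibitor geminin was close to it. CDC6 was at 45.9 FPKM (control) and 33.5 FPKM (SAF-A) at 24 h, then 35.4 and 12.7 FPKM at 48 h. Its control level also differed in time, with intervals apart, and the SAF-A library was below the control of the same time in both cases. CDT1 (chr16:88870186-88875666, plus strand, hg19), the loader that is destroyed in S phase, was at 11.5 and 7.0 FPKM at 24 h, which is 61.0% of control (54.5 to 68.1%) and the lowest share of the set at that time. At 48 h CDT1 was at 9.44 and 1.00 FPKM, 10.6% of control, and that value rests on 3 reads (2.17 to 31.0%). GMNN, which encodes the CDT1 inhibitor geminin, was at 51.2, 47.8, 49.1 and 59.6 FPKM. Its intervals overlapped in both siRNA comparisons.

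All 6 genes of the MCM2-7 helicase were lower with SAF-A siRNA at both times. Their intervals were apart in all 12 cases, against 17.5% of tested genes lower at 24 h and 25.6% at 48 h. The medians were -0.33 at 24 h and -0.81 at 48 h, and MCM2 alone passed the 2-fold line at 48 h with 1 FPKM added, while MCM6 was at 48.4% of control FPKM. MCM7 (chr7:99690351-99699563, minus strand, hg19), the most abundant of the 6, was at 118 and 92.9 FPKM at 24 h, then 115 and 63.8 FPKM at 48 h, so both SAF-A libraries lay below both controls. MCM2 (chr3:127317200-127341278, plus strand, hg19) was at 51.4, 40.6, 47.4 and 22.8 FPKM in the order given above for ORC4, the last being 48.1% of control (38.6 to 59.1%, on 91 reads). MCM3 differed least, at 72.7 and 61.1 FPKM at 24 h and 73.5 and 56.6 FPKM at 48 h. MCM5 was at 60.2, 44.1, 55.0 and 36.8 FPKM and MCM4 at 39.99, 32.5, 36.9 and 21.0 FPKM. For each of these genes the SAF-A 48 h library was the lowest of the 4. MCM6 was at 16.4, 12.8, 16.6 and 8.03 FPKM and had the lowest level of the complex in every library. The 6 encode a ring with 1 copy of each protein, yet the highest RNA level (MCM7) was 7.2 times the lowest (MCM6) in the control 24 h library, and 7.27, 6.91 and 7.95 times in the other 3 libraries in the same order. The spread of levels within the ring was thus about the same in all 4 libraries.

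The factors that fire origins and activate the helicase were the lowest role at 48 h. The median over 8 genes was -0.28 at 24 h and -1.87 at 48 h. Of the 8, 5 were lower with intervals apart at 24 h, against 17.5% of tested genes, and 7 at 48 h, against 25.6%. At 48 h 6 were 2-fold lower (MCM10, GINS3, DBF4, CDC7, GINS4 and CDC45), against 20.1% of tested genes. MCM10 (chr10:13203554-13253104, plus strand, hg19), which helps to open the loaded helicase, was at 16.5 and 11.9 FPKM at 24 h, then 13.4 and 0.757 FPKM at 48 h. That is 72.0% of control at 24 h (67.4 to 76.9%) and 5.64% at 48 h, the lowest share of the set, on 4 reads where the control had 1666. CDC7, the kinase that phosphorylates MCM proteins, was at 13.6, 9.92, 13.0 and 2.38 FPKM, the last on 9 reads. DBF4, the regulatory subunit of that kinase, was at 13.3, 10.3, 12.1 and 1.78 FPKM, the last on 8 reads. The 2 subunits were within 1.02 to 1.34 times of each other in all 4 libraries. DBF4 was at 14.7% of control at 48 h (6.32 to 29.0%) and CDC7 at 19% in depth-scaled reads (8.67 to 36.2%).

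CDC45, which joins the MCM ring and GINS in the active helicase, was at 27.2 and 20.2 FPKM at 24 h, then 23.4 and 8.34 FPKM at 48 h. Both SAF-A libraries were below both controls. The 4 GINS genes did not differ alike at 48 h. GINS2, the most abundant, was at 42.3, 37.6, 32.5 and 28.6 FPKM, and its intervals overlapped in both siRNA comparisons. GINS1 was at 19.3, 18.9, 17.2 and 10.5 FPKM. GINS3 was at 14.8, 12.5, 14.9 and 1.99 FPKM, the last on 5 reads and 13.7% of control in depth-scaled reads (4.43 to 32.1%). GINS4 was at 14.2, 12.1, 13.2 and 3.39 FPKM, the last on 15 reads. The ratio of the highest to the lowest GINS level was 2.98, 3.12 and 2.47 in the 3 deep libraries and 14.4 in the SAF-A 48 h library, where GINS3 was the lowest.

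Primase and the polymerases, which make the RNA-DNA primers and extend the leading and lagging strands, were all below 0 at both times. The median over 8 genes was -0.30 at 24 h and -0.68 at 48 h. Intervals were apart for 5 and 3 genes, against 17.5% and 25.6% of tested genes that were lower. POLA1 (chrX:24712064-25015102, plus strand, hg19), the catalytic subunit of the priming polymerase alpha, was at 11.4 and 9.21 FPKM at 24 h, then 10.6 and 2.67 FPKM at 48 h, the last 25.1% of control (14.6 to 40.2%, on 17 reads). Its partner POLA2 was at 16.9, 16.0, 15.0 and 11.2 FPKM, with intervals that overlapped in both siRNA comparisons. The primase subunits PRIM1 (24.7 and 19.4 FPKM) and PRIM2 (25.9 and 20.3 FPKM) were both lower with SAF-A siRNA at 24 h. At 48 h PRIM1 was at 17.8 and 13.1 FPKM and PRIM2 at 24.5 and 16.2 FPKM. POLD3, an accessory subunit of the lagging-strand polymerase delta, was at 12.7, 10.7, 8.71 and 3.63 FPKM. It was the other polymerase gene called 2-fold lower at 48 h with 1 FPKM added (41.5% of control in depth-scaled reads, 23.6 to 67.7%), and its control level was also lower at 48 h than at 24 h. The catalytic subunit POLD1 was at 21.4, 17.8, 19.2 and 13.4 FPKM. POLE, the catalytic subunit of the leading-strand polymerase epsilon, was at 8.36, 6.31, 8.14 and 3.69 FPKM, lower with intervals apart at both times and at 45.3% of control at 48 h, which on that scale is just short of the call. POLE2 had the fewest reads of the set in the 3 deep libraries (272 to 354) and was at 7.69, 5.35, 7.11 and 3.70 FPKM.

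The sliding clamp and its loader were close to control at the median, and held RFC5, the member furthest above control at 24 h. The median of the 6 genes was -0.13 at 24 h and 0.02 at 48 h, and none was 2-fold different. Of all tested genes, 1.83% were 2-fold higher and 1.25% lower at 24 h, and 14.2% and 20.1% at 48 h. PCNA and RFC3 were lower with intervals apart at both times, 2 of 6 genes, against 17.5% and 25.6% of tested genes. RFC5 was higher with intervals apart at 24 h, 1 of 6, against 8.93%. PCNA, the clamp that tethers polymerases to DNA and the most abundant RNA of the set (chr20:5095599-5107268, minus strand, hg19), was at 212 and 174 FPKM at 24 h, then 193 and 156 FPKM at 48 h, which is 82.3% and 80.6% of control. RFC5 (chr12:118454506-118470042, plus strand), a small subunit of the clamp loader, was at 11.8 and 17.7 FPKM at 24 h, 150% of control in depth-scaled reads (136 to 166%). It was at 6.94 and 10.4 FPKM at 48 h, the last on 24 reads, 147% of control (92.7 to 221%). The SAF-A library was above the control at each time, and both libraries of the later time were below their 24 h counterparts. The large subunit RFC1 was at 22.5, 20.5, 20.9 and 27.0 FPKM and RFC2 at 30.9, 28.1, 29.2 and 39.1 FPKM. Both were highest in the SAF-A 48 h library, with deposited intervals that overlapped those of control. The narrower counting intervals of both lay above the control level at 48 h. RFC3 was at 28.1 and 22.7 FPKM at 24 h, then 24.9 and 13.1 FPKM at 48 h. Its 48 h value was 52.5% of control in FPKM but 37.4% in depth-scaled reads, with 65.5% of its level on another transcript row than in the control library. RFC4 was at 36.5, 33.5, 35.7 and 24.9 FPKM.

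Okazaki fragment processing was represented by the flap nuclease FEN1 and by DNA ligase I. FEN1 (chr11:61560109-61564714, plus strand, hg19) was at 73.3 and 65.4 FPKM at 24 h, 89.2% of control (85.5 to 93.1%), and at 81.5 and 13.96 FPKM at 48 h, 17.1% of control (12.1 to 24.1%, on 36 reads). The SAF-A 48 h library was far below the others, which ran from 65.4 to 81.5 FPKM. The FEN1 intervals were also apart between the siRNAs at 24 h and between the controls in time. LIG1 was at 17.5 and 12.7 FPKM at 24 h, then 14.4 and 9.13 FPKM at 48 h, lower with intervals apart at both times and in a more even proportion (72.4% and 63.4% of control).

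The RPA trimer coats single-stranded DNA at forks and in repair. It was the one role of the 10 in which no gene had deposited intervals apart in either siRNA comparison. The medians of its 3 genes were -0.14 and -0.15. RPA2, the most abundant, was at 48.4, 42.8, 50.1 and 45.2 FPKM. RPA1 was at 11, 9.93, 11.6 and 9.53 FPKM, and RPA3 at 12.1, 11.5, 10.7 and 13.6 FPKM. The narrower counting intervals at 24 h lay below 100% of control for RPA2 (83.2 to 93.9%) and RPA1 (83.25 to 97.4%), not for RPA3. At 48 h those of all 3 included 100%.

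The genes that hold the fork together and signal its stalling had a median of -0.31 at 24 h. All 4 were lower there with intervals apart, against 17.5% of tested genes. WDHD1, which ties polymerase alpha to the helicase, was at 12.6 and 8.52 FPKM at 24 h, 67.3% of control in depth-scaled reads (63.0 to 72.0%), and at 11.5 and 6.21 FPKM at 48 h. CLSPN (chr1:36197713-36235551, minus strand, hg19), the checkpoint mediator claspin, was at 14.8, 12.1, 15.6 and 3.00 FPKM, the last 19.3% of control (12.9 to 27.4%, on 30 reads). TIPIN was at 23.5, 19.9, 18.1 and 7.64 FPKM, the last on 10 reads. TIMELESS, which forms a pair with TIPIN at the fork, was at 11.9 and 9.02 FPKM at 24 h but at 11.4 and 11.7 FPKM at 48 h. The 2 partners were thus both below control at 24 h, and at 48 h TIPIN was at 42.1% of control (20.0 to 77.7%) and TIMELESS at 102% (79.1 to 130%).

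Of the 5 genes of nucleotide supply, 4 were lower with intervals apart at 24 h and 3 at 48 h. Those shares over tested genes were 17.5% and 25.6%. RRM1 and RRM2 encode the large and small subunits of ribonucleotide reductase, which makes deoxynucleotides. RRM1 (chr11:4115924-4160106, plus strand, hg19) was at 88.5 and 80.5 FPKM at 24 h, then 82.3 and 32.7 FPKM at 48 h. RRM2 (chr2:10262695-10271546, plus strand) was at 81.2 and 71.2 FPKM at 24 h, then 62.2 and 20.3 FPKM at 48 h. In the SAF-A 48 h library these values rest on 119 and 76 reads, and they stood at 39.8% (32.9 to 47.7%) and 32.6% (25.8 to 41.1%) of control at 48 h. TYMS, thymidylate synthase, had the reverse order of sizes, with 44.2 and 29.2 FPKM at 24 h (66.0% of control, 61.3 to 71.1%) and 40.1 and 30.9 FPKM at 48 h (77.1%, 57.3 to 102%). TK1, the salvage thymidine kinase, was at 46.9, 36.8, 40.5 and 23.6 FPKM. DUT, which removes dUTP from the pool, was at 54.8, 53.2, 54.7 and 59.5 FPKM, within its intervals in both siRNA comparisons.

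**Figure D4:**
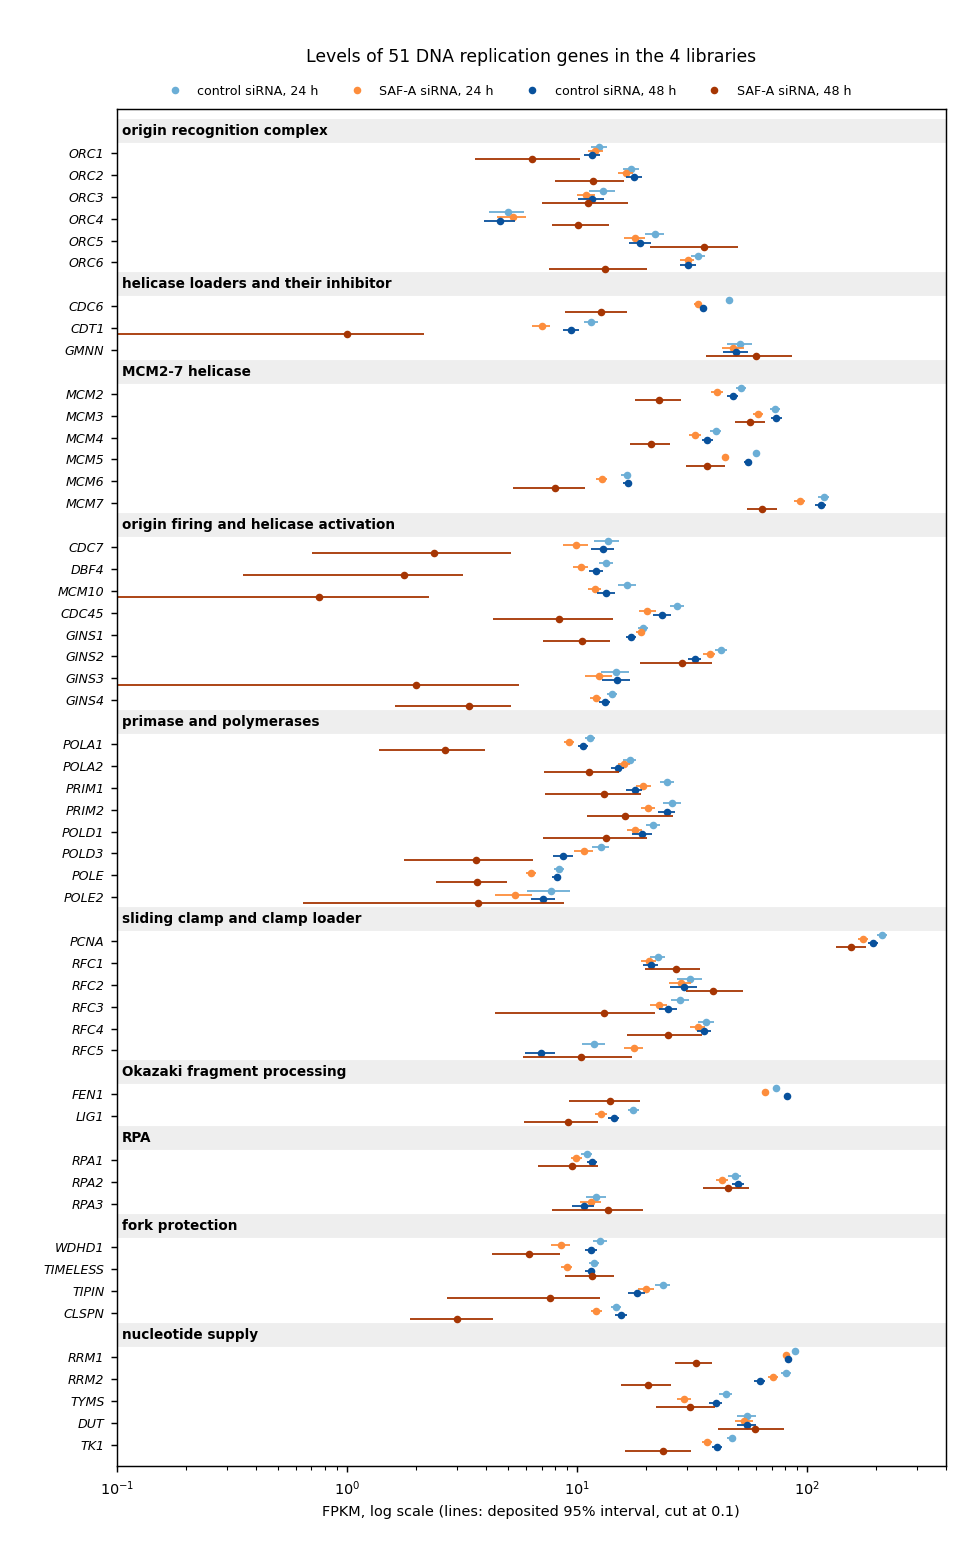
Level of each of the 51 genes in FPKM (x axis, log scale) in the 4 libraries, grouped by role. Points are the deposited values summed over transcript rows, and lines run between the summed bounds of the deposited 95% intervals, drawn from 0.1 FPKM upwards. The SAF-A 48 h library has the widest lines and the lowest points for most genes, with MCM10 at 0.757 FPKM and CDT1 at 1.00 FPKM, and the highest points for ORC4 and ORC5.

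Differences of the members had correlations between -0.29 and 0.21 with their length and level. Over the 51 genes the Spearman correlation of the difference with spliced length was -0.12 at 24 h and -0.29 at 48 h. With the mean level of the control libraries it was 0.02 and 0.04. With the mean level of all 4 libraries, which includes the SAF-A libraries compared, it was 0.14 and 0.21. The points share the same 4 libraries, and these correlations describe them. Of the 51 members, 20 are in a widely used S phase score for single cells. These 20 had a median of -0.27 at 24 h, with 20 of 20 below 0, and of -0.99 at 48 h, with 10 of 20 2-fold lower, and the other 31 had a median of -0.25 at 24 h, with 29 of 31 below 0, and of -0.60 at 48 h, with 7 of 31 2-fold lower. Of all tested genes 62.9% were below 0 at 24 h and 20.1% were 2-fold lower at 48 h.

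Counting could limit several values. Of the members, 30 had several transcript rows, whose values were summed, and 3 (MCM10, ORC3 and ORC4) had a shift of at least 30% in the share of their rows at 24 h. The mean of each of these was below 20 FPKM. At 48 h 10 members had such a shift, among them GMNN (67.6%), RFC3 (65.5%) and DUT (34.7%), whose means are above 20 FPKM. ORC4, the 1 member higher with intervals apart at 48 h, had a shift of 100% there. Its SAF-A level lay on 1 row that held almost none of the control level, so that call rests on the sum. For MCM10 the 2 rows differ by 3 nt (4547 and 4550 nt), and 72.5% of its FPKM was assigned to the shorter one with control siRNA at 24 h against 0.038% with SAF-A siRNA, so only the sum is used above. For RFC5 the row that held 91.9% of the level with control siRNA at 48 h held 1.89% in the SAF-A 48 h library, and the difference of that row alone was -2.62 in place of 0.52 for the sum. For 7 members an exon overlapped one of a gene on the other strand, and the use of strand in counting is not given in the sources used here, so that such reads cannot be told apart. The antisense RNA PCNA-AS1 lies within exon bases of PCNA over all of its 384 nt. It was at 24.3 and 10.7 FPKM at 24 h and at 58.2 FPKM with control siRNA at 48 h, and had 0 reads in the SAF-A 48 h library, where up to 3 reads would be missed. PCNA was at 212, 174 and 193 FPKM in the first 3 of these libraries. The overlaps of MCM7 with AP4M1 (327 bases), ORC4 with ACVR2A (431 bases), DBF4 with SLC25A40 (149 bases), RFC4 with EIF4A2 (4 bases), RPA3 with an unnamed RNA (111 bases) and TYMS with ENOSF1 (888 bases) covered part of each gene.

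Other genes of the pathway were read beside the members. Of 29 other replication factors, none was 2-fold higher or lower at 24 h, against 1.83% and 1.25% of tested genes. At that time 25 were below 0, against 62.9% of tested genes, with a median of -0.18. At 48 h 14 were 2-fold lower and 1 higher, against 20.1% and 14.2% of tested genes, with a median of -0.90. The lowest were MCM8, a helicase of recombination (18.1 FPKM (control) and 1.64 FPKM (SAF-A), on 7 reads), CDCA7 (9.92 and 0.946 FPKM) and RECQL4, a helicase needed for initiation (7.65 and 0.682 FPKM). The last 2 rest on 3 reads each. CDCA7 was at 9.54% of control FPKM and RECQL4 at 8.92%, with counting intervals of 2.13 to 30.4% and 1.83 to 26.1%. The highest were RNASEH2B, a subunit of the nuclease that removes ribonucleotides from DNA (16.1 and 36.9 FPKM), POLE4 (58.2 and 91.9 FPKM) and POLD4 (9.99 and 12.9 FPKM). The accessory subunits of the polymerases did not go one way at 48 h, since POLE3, the partner of POLE4, was at 87.4 and 38.1 FPKM, and POLD2 was at 54.0 and 54.7 FPKM. POLE3 and POLD2 are named here after their values were seen.

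Of 17 tested genes of the E2F and RB family and S phase cyclins, none was 2-fold different at 24 h. Of all tested genes, 1.83% were 2-fold higher and 1.25% lower. At that time 11 of the 17 were below 0, against 62.9% of tested genes. At 48 h 5 were 2-fold lower, against 20.1% of tested genes, and none was 2-fold higher, against 14.2%. The medians were -0.12 at 24 h and -0.76 at 48 h. The lowest at 48 h were the phosphatase CDC25A (34.5 and 3.76 FPKM), cyclin CCNE2 (9.13 and 1.30 FPKM, on 4 reads) and cyclin CCNA2 (76.1 and 17.7 FPKM). The highest were the repressor E2F7 (10.2 and 14.3 FPKM), TFDP2 with a difference of 0.20 and E2F4 with a difference of 0.17. CCNE2 was above control at 24 h (13.3 and 17.6 FPKM), unlike 49 of the 51 members. Of 10 other genes of nucleotide supply, 2 were 2-fold higher and 1 was 2-fold lower at 48 h, with a median of 0.24. Of all tested genes, 14.2% and 20.1% were called those ways. Among the lowest were DCK (13.97 and 8.90 FPKM) and DTYMK (a difference of -0.43). RRM2B, the p53-induced small subunit of ribonucleotide reductase, was at 18.9 and 25.6 FPKM at 24 h, then 11.2 and 47.9 FPKM at 48 h. The last was 427% of control FPKM, with a counting interval of 374 to 485%. The mitochondrial thymidine kinase TK2 was at 2.45 and 4.72 FPKM at 24 h, then 1.46 and 4.59 FPKM at 48 h, and SAMHD1, which degrades deoxynucleotides, was at 5.0 and 8.26 FPKM at 48 h. So the S phase subunit RRM2 and its p53-induced counterpart RRM2B stood on opposite sides of control at both times, as did TK1 and TK2.

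Of 22 other tested S phase score genes, some of which are also in the lists above, none was 2-fold different at 24 h (median -0.24). Of all tested genes, 1.83% were 2-fold higher and 1.25% lower at that time. At 48 h 13 were 2-fold lower (median -1.11), against 20.1% of all tested genes. The lowest were the nuclease EXO1 (17.4 and 1.77 FPKM, on 7 reads), CDCA7 and CCNE2. Among the highest were SLBP with a difference of -0.03 and HELLS with a difference of -0.51.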

How the data were processed

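RNA was sequenced from 4 libraries of RPE1 cells, as 50-base single-end reads of ribosomal-RNA-depleted total RNA, per the labels' protocols. The authors deposited, per the file headers, FPKM values of RefSeq transcripts, their 95% bounds and a status. The submitters' processing notes name TopHat2 2.0.10, Bowtie2 2.1.0, Cufflinks 2.2.1, Cuffdiff and hg19, with no roles given. The deposited transcript files also hold a coverage value (another unit), from which the depth was derived.

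Rows were joined to symbols through RefSeq (97.3% of 44444 accessions matched) and FPKM and bounds were summed per symbol. Summed bounds are wider than an interval of the sum. Estimated reads were FPKM multiplied by effective length (fragments of 200 ± 80 nt) and mapped reads; of rows below 30 reads, 69.6% to 81.2% came out whole within 0.1 read. Percentages of control carry exact 95% intervals of these reads, for counting error only. They are percentages of the control's depth-scaled reads, or of FPKM where stated. Differences are in log2(FPKM + 1), with a minimum mean of 1 FPKM and a call at 2-fold, in Python 3.11.15 with pandas 2.3.3, numpy 2.4.6 and SciPy 1.17.1, and the calculation was tested on simulated data. No test or p-value was possible with 1 library a group.

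Named are all 51 members, with values for those that a result turns on, HNRNPU, overlapping genes, and of the other lists those 2-fold different at 24 h and the 3 highest and 3 lowest at 48 h. A few genes that this rule names are not reported here. The members and lists were chosen with earlier results of these data known. The alternatives were another pseudocount, other minimum levels, centring, TPM, non-overlapping intervals, a 1.5-fold call, single transcript rows and protein-coding rows, and 1 more was added after the data were seen.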

Additional observations from a re-analysis of the deposited data

Results flagged for a closer look

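In 7 members the difference in log2(FPKM + 1) between SAF-A and control siRNA had opposite signs at 24 h and 48 h. Opposite signs were common over all tested genes. Of these, 62.9% were below 0 at 24 h and 54.1% at 48 h, but only 38.8% at both. The values of the 7 members were -0.27 and 0.88 for ORC5, -0.1 and 0.28 for GMNN, -0.13 and 0.35 for RFC1, and -0.13 and 0.41 for RFC2. They were -0.07 and 0.32 for RPA3, -0.36 and 0.03 for TIMELESS, and -0.04 and 0.12 for DUT. Whether the 2 times differ was not tested, since each group had 1 library. The deposited intervals were apart at 24 h for ORC5 and TIMELESS and at 48 h for none of the 7. The narrower counting intervals at 48 h lay above the control level for ORC5 (136.4 to 225.9% of control), RFC1 (108.9 to 151.7%) and RFC2 (105.3 to 171.3%). Those of GMNN, RPA3, TIMELESS and DUT included the control level at 48 h. At 24 h DUT was 0.02 once all values were centred on the better expressed genes. After rescaling to TPM over genes of 300 nt or longer, TIMELESS was -0.20 and DUT -0.11 at 48 h. With only the transcript row of the largest mean level, GMNN was 0.26 and RFC1 0.11 at 24 h.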

How the results depend on the processing

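No paired analysis was possible because each group had 1 library. Of the counts, medians and HNRNPU values under the alternatives, 121 stayed within the range allowed and 13 moved. Shares of all tested genes called were not calculated at 1.5-fold, with single rows or with TPM, so those counts have no background. A call at 1.5-fold gave 1 member lower at 24 h (CDT1), 28 lower and 2 higher at 48 h, 1 lower in time with control siRNA, and 25 lower and 2 higher in time with SAF-A siRNA. With only the row of largest mean FPKM per gene, 1 member was higher (ORC4) and 1 lower (MCM10) at 24 h, 3 were higher at 48 h, 1 was lower in time with control siRNA, 2 were higher in time with SAF-A siRNA, and MCM10 turned to 0.46 in that last comparison. A pseudocount of 0.1 gave 1 member 2-fold higher at 48 h, and TPM over all genes 2 higher in time with SAF-A siRNA. Of the single members' values 1686 stayed close to the reported one, 47 moved and 1 changed sign among those called. Another sign was seen in 41 of all of these values. With the minimum mean taken over the 3 libraries other than SAF-A 48 h, a choice made after the data were seen, 49 members were below 0 at 24 h. Shallow sequencing of the SAF-A 48 h library limits all values that use it, most of all the 6 members with fewer than 10 reads there.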
